A study of Mus musculus with 12 samples.

Results

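The genes described here are the protein-coding Hox genes, chosen by symbol as every protein-coding entry named Hoxa, Hoxb, Hoxc or Hoxd followed by a number, and they were 39 of the 34303 gene symbols measured. They lie in 4 clusters in the mouse genome build mm10: HoxA on chromosome 6, HoxB on chromosome 11, HoxC on chromosome 15 and HoxD on chromosome 2. Their RNA was measured by sequencing in 12 libraries of mouse cutaneous squamous cell carcinoma (cSCC) and dorsal skin, in a study of how TAp63 acts through microRNAs against this tumour. TAp63 names the isoforms of p63 that carry the N-terminal transactivation domain. The groups were TAp63-/- cSCC (n = 4) and wild-type (WT) cSCC (n = 2), both from C57Bl6 mice over 35 weeks of age after chronic ultraviolet radiation of 2.5 kJ/m2 given 3 times a week, and TAp63-/- skin (n = 3) and WT skin (n = 3), both from untreated, shaved C57Bl6 mice of 4 weeks. The labels give no cell type or promoter limit for the TAp63-/- genotype, and do not say whether each library came from a separate animal.

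Hox genes encode homeodomain transcription factors that give cells their address along the head-to-tail axis of the embryo. Their order along the chromosome matches the order in which they act: low paralog numbers, at the 3′ end of a cluster, mark hindbrain and neck levels, middle numbers the trunk, and high numbers the tail, distal limbs and genitalia. Adult skin keeps part of this code, above all in dermal fibroblasts, whose Hox profile differs between body sites, and Polycomb and trithorax complexes hold the genes off or on.

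Levels are given in FPKM, a unit that divides fragments by transcript length and library size, so they can be set side by side between genes. All 12 columns share nearly 1 distribution, with sums of 780180 to 780251 FPKM, so the depth of each library is unknown. Trp63, the targeted gene, had 244.8, 108.5, 164.0 and 257.8 FPKM in TAp63-/- cSCC and 141.4 and 97.3 FPKM in WT cSCC, with 111.3, 98.2 and 84.5 FPKM in TAp63-/- skin and 113.0, 100.4 and 119.4 FPKM in WT skin. This gene value sums isoforms with and without the TA domain, so it checks nothing about the genotype labels. By Xist and 4 Y-linked genes, all 6 skin libraries and TAp63-/- cSCC 1 were male and the other 5 tumours female. Tissue therefore cannot be told apart from age, ultraviolet exposure and, for all tumours but 1, sex. Tumour and skin libraries also carry different title series, LM and Su_R, which the labels do not explain and which follow tissue fully. As to cell makeup, 6 of 9 fibroblast markers fell in TAp63-/- cSCC against TAp63-/- skin and 3 of 9 fell in WT cSCC against WT skin. The summed fibroblast markers were 851 to 2715 FPKM in TAp63-/- cSCC, 1266 to 1475 in WT cSCC, 4053 to 8883 in TAp63-/- skin and 2512 to 5001 in WT skin, and none of them was listed at 0 in any library. The summed keratinocyte markers were 8790 to 20845 FPKM in TAp63-/- cSCC, 9677 to 19479 in WT cSCC, 3479 to 4354 in TAp63-/- skin and 4219 to 4571 in WT skin. Of these 8 markers, 5 rose in TAp63-/- cSCC and 1 rose in WT cSCC against skin of the same genotype. Trp63, the targeted gene, is among the 8 and among the 5 that rose (log2 change 0.90, SE 0.29, adjusted p = 0.0377, limma). With TAp63 absent and in the wild type, 5 and 4 of 5 skeletal muscle, 4 and 3 of 5 adipocyte and 5 and 5 of 5 Schwann cell markers fell. So did 5 and 1 of 5 melanocyte and 1 and 0 of 5 endothelial markers, and none of 5 tested macrophage and lymphocyte markers passed. Of 6 neutrophil markers 4 were tested, and 4 and 3 of these rose. The neutrophil markers Mpo and Elane, not tested, reached at most 0.0971 and 0.0663 FPKM in tumours and 0.102 and 0.298 FPKM in skin. These shifts move with every tumour and skin difference below, and their part in it was not tested. In bulk tissue, fewer cells of a type and less RNA per cell cannot be told apart.

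The highest Hox median in tumours and in skin was that of the same gene. In the 6 tumours the highest median was that of Hoxa7, a trunk gene of the HoxA cluster, at 42.2 FPKM (range 4.99 to 87.1). It was followed by Hoxb8 at 7.06, Hoxa9 at 6.86, Hoxa5 at 5.54, Hoxb7 at 4.71, Hoxc6 at 4.44, Hoxb6 at 4.35, Hoxc8 at 3.82 and Hoxd8 at 3.64 FPKM, and the ranges of these genes overlapped. In the 6 skin libraries Hoxa7 again led, with a median of 48.9 FPKM (range 15.9 to 60.9). Next came Hoxc13, the Hox gene of the hair follicle matrix, at 16.4 FPKM (range 2.99 to 38.8). The thoracic genes Hoxc8, Hoxd8 and Hoxc6 followed in skin with medians of 13.7, 13.3 and 11.7 FPKM, and their ranges of 11.4 to 18.8, 8.84 to 16.5 and 10.3 to 13.4 FPKM overlapped one another, as did the ranges of Hoxa7, Hoxc13 and Hoxc8. Hoxb8 (7.69 FPKM), Hoxa5 (7.53 FPKM), Hoxb3 (5.24 FPKM) and Hoxb6 (4.52 FPKM) had the next skin medians. Hoxa7 was the highest Hox gene in every library except TAp63-/- skin 3 and WT skin 1, where Hoxc13 was. A total of 7 genes stood at 1 FPKM or more in all 12 libraries: Hoxa5, Hoxa7, Hoxb2, Hoxb6, Hoxc6, Hoxc8 and Hoxd8.

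**Figure D1:**
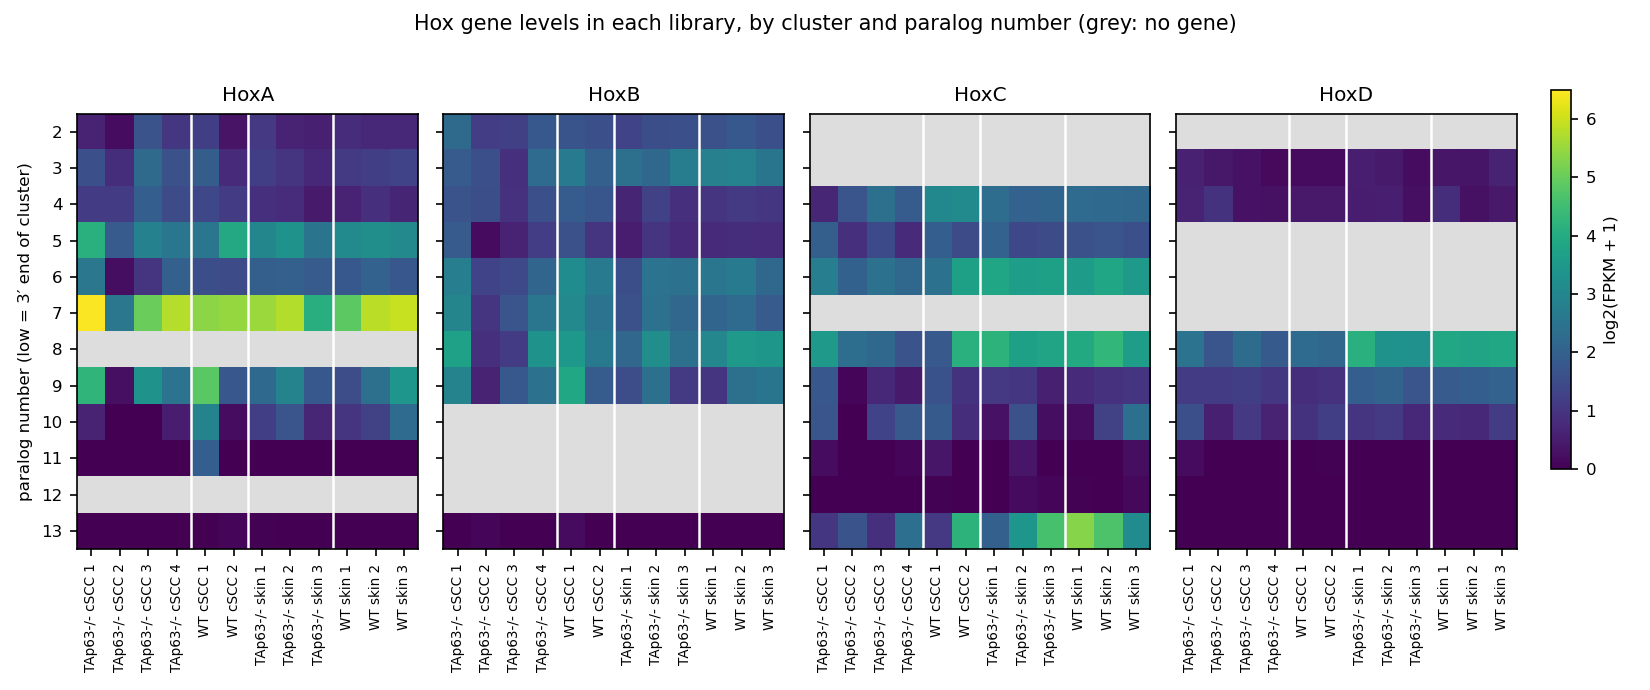
Level of the Hox genes of paralog numbers 2 to 13 (rows, low numbers at the 3′ end) in each library (columns), with 1 panel per cluster and colour giving log2(FPKM + 1); white lines part the groups, grey marks numbers with no gene in that cluster. Most colour is at paralog numbers 3 to 10, Hoxa7 is brightest in most libraries, and the rows from 11 to 13 are dark except Hoxc13 and, in WT cSCC 1, Hoxa11.

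A total of 11 genes stayed below 1 FPKM in all libraries: Hoxa13, Hoxb1, Hoxb13, Hoxc11, Hoxc12, Hoxd1, Hoxd3, Hoxd4, Hoxd11, Hoxd12 and Hoxd13, with the highest value among them 0.941 FPKM for Hoxd4 in TAp63-/- cSCC 2. Hoxd12 was listed at 0 in all 12, and Hoxd13 and Hoxa13, which pattern the digits, reached at most 0.0131 and 0.0622 FPKM. Hoxb1, a marker of the embryonic hindbrain, reached at most 0.113 FPKM, and Hoxb13, a gene of the tail and prostate, at most 0.150 FPKM. Hoxa11, which patterns the forearm and the uterus, had 2.84 FPKM in WT cSCC 1 and was at most 0.0102 FPKM in the other 11. The non-coding entry Hoxa11as, which overlaps Hoxa11, had 2.81 FPKM in that tumour and at most 0.0575 FPKM elsewhere. Since counting by strand is not stated, reads of these overlapping entries cannot be told apart. The non-coding RNA Hotair, transcribed from the HoxC cluster, reached at most 0.00727 FPKM, and Hoxb3os at most 0.0204 FPKM. Hoxa11 and these 11 genes did not pass the filter of 1 FPKM in at least 2 libraries, and 26 were tested. Cdx1, Cdx2, Cdx4, Evx1 and Evx2, the posterior and cluster-flanking homeobox genes, summed to at most 0.318 FPKM (WT cSCC 1) and none was tested.

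Between tumour and skin, 4 Hox genes changed with TAp63 absent and 2 in the wild type, with Hoxd8 and Hoxd9 called in both. In TAp63-/- cSCC against TAp63-/- skin, Hoxd8, Hoxd9 and Hoxc6 fell and Hoxa4 rose. In WT cSCC against WT skin, Hoxd8 and Hoxd9 fell. The test was limma on log2(FPKM + 1) with Benjamini-Hochberg adjustment over all 14752 symbols tested, and a change means an adjusted p below 0.05. The share called was 15.4% of the 26 Hox genes with TAp63 absent, against 27.2% of all symbols (13% higher, 14.2% lower). In the wild type it was 7.69% of the Hox genes, against 11.4% of all symbols (4.66% higher, 6.77% lower), so neither share stood above its background. The median log2 change of the 26 was -0.14 with TAp63 absent and 0.08 in the wild type, against 0.10 and 0.04 over all symbols. In all 6 tumours against all 6 skin libraries, Hoxa4 was higher without overlap (background 11%) and Hoxd8 and Hoxd9 were lower without overlap (background 10.9%). Taking the wild type alone, the WT tumours lay above all WT skin libraries for Hoxa4, Hoxb4, Hoxb5, Hoxb7 and Hoxc4 (5 of 26, background 27.3%) and below them for Hoxa6, Hoxd8 and Hoxd9 (3 of 26, background 25.5%). Hoxa4 and Hoxb5 reached 1 FPKM in tumours only, so they passed the filter on low values through the tissue where they are high. With sex as a term in the fit, the only Hox call with TAp63 absent was Hoxc4 and there was none in the wild type, while the calls over all symbols went down to 1939 and 255. That term rests on TAp63-/- cSCC 1, the only male tumour. With TAp63 absent the fit sets this tumour against skin, and in the wild type it borrows the sex difference between TAp63-/- tumours. Hoxc4 was lower in this tumour than in any other library, at 0.633 FPKM, and its adjusted p without the sex term was 0.298 (limma).

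**Figure D2:**
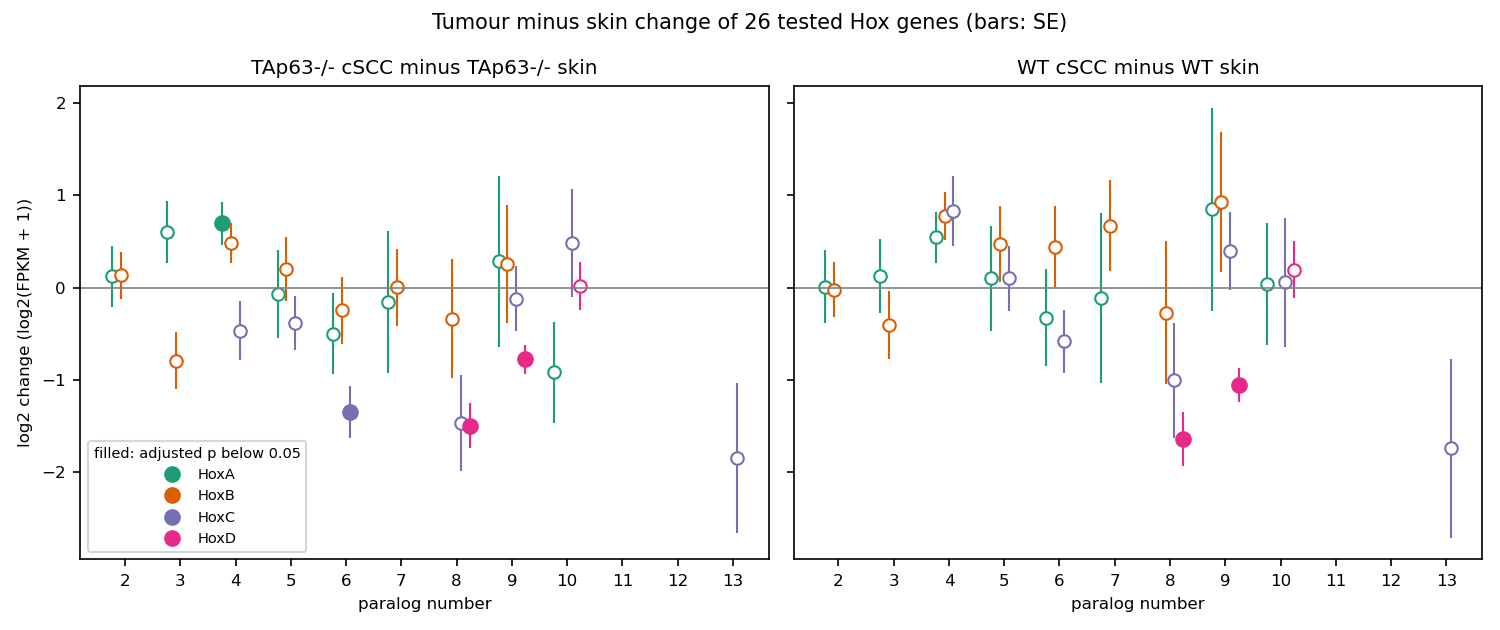
Tumour minus skin difference in log2(FPKM + 1) of 26 tested Hox genes by paralog number, with TAp63 absent (left) and in the wild type (right); colours mark the cluster, bars the standard error, filled points an adjusted p below 0.05 (limma). The 4 filled points on the left are Hoxa4 above 0 and Hoxc6, Hoxd8 and Hoxd9 below 0; the 2 on the right are Hoxd8 and Hoxd9.

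The HoxD genes that fell, Hoxd8 and Hoxd9, are neighbours. Hoxd8 lies at chr2:74704615-74707933 and Hoxd9 at chr2:74697680-74700208 (mm10, plus strand). The bases before their starts are shown because these neighbours moved the same way. They are from RefSeq (GRCm38.p6, plus strand), where 22 of the Hox genes had a window, and capitals mark TAAT or its reverse complement ATTA, the core that homeodomains bind:
Hoxd8 chr2:74704365-74704614: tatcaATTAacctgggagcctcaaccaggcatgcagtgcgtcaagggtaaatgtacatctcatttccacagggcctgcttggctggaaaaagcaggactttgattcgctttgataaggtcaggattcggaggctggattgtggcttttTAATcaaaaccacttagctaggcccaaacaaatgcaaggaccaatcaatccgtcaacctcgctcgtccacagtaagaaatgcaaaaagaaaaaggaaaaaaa
Hoxd9 chr2:74697513-74697679: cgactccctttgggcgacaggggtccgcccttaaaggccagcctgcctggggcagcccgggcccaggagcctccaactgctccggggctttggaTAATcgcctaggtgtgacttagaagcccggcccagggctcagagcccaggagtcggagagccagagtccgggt
In the 250 bases before the RefSeq start, the Hoxd8 window held 2 matches to TAAT on either strand and 6 CpG dinucleotides at 44.4% GC. The Hoxd9 window, of which the 167 bases before the deposited gene entry are printed, held 1 match and 13 CpG dinucleotides at 65.2% GC. The median over all 32851 windows was 52.4% GC. TAAT on either strand was in 18 of the 24 windows of the 22 Hox genes and in 54.9% of all windows. The Hox and Pbx motif TGATNNAT (either strand, where N is any base) was in 4 of 24 Hox windows and 7.7% of all windows, and TATAAA (either strand) in 4 of 24 Hox windows and 12.4% of all. Neither motif was in the Hoxd8 or Hoxd9 window.

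Hoxd8, a trunk gene, had 4.56, 2.28, 3.89 and 2.58 FPKM in TAp63-/- cSCC and 3.85 and 3.44 FPKM in WT cSCC, against 16.5, 8.97 and 8.84 FPKM in TAp63-/- skin and 13.7, 12.9 and 13.9 FPKM in WT skin. Every tumour was below every skin library, and TAp63-/- skin 1 was the highest of all. The Hoxd8 entry overlaps the entry 1700109F18Rik, and strand in counting is not stated, so reads may be shared. The log2 change was -1.50 with TAp63 absent (SE 0.25, adjusted p = 0.00139) and -1.64 in the wild type (SE 0.29, adjusted p = 0.00632). With sex as a term, which rests on the male tumour, TAp63-/- cSCC 1, these were -1.11 (adjusted p = 0.0641) and -1.12 (adjusted p = 0.214). The first sets that tumour against TAp63-/- skin, with 4.56 FPKM against 8.84 to 16.5 FPKM. The second borrows the sex difference between TAp63-/- tumours, since all WT tumours were female and all WT skin male.

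Hoxd9, which helps pattern the lumbosacral axis and the limbs, had the smallest SD over the 6 tumours of the 26 tested Hox genes, 0.13 on the log2(FPKM + 1) scale, and also 0.13 over the 6 skin libraries. It had 1.18, 1.19, 1.29 and 1.04 FPKM in TAp63-/- cSCC and 0.816 and 0.891 FPKM in WT cSCC, against 2.83, 3.18 and 2.26 FPKM in TAp63-/- skin and 2.62, 2.82 and 3.14 FPKM in WT skin. The tumours did not overlap the skin, and both WT tumours were below all 4 TAp63-/- tumours. The log2 change was -0.78 with TAp63 absent (SE 0.16, adjusted p = 0.0044) and -1.06 in the wild type (SE 0.19, adjusted p = 0.00587), and with sex as a term it was -0.78 (adjusted p = 0.0566) and -1.05 (adjusted p = 0.104). Next to these genes, Hoxd10 had 1.99, 0.486, 1.12 and 0.552 FPKM in TAp63-/- cSCC and 0.946 and 1.29 FPKM in WT cSCC, against 1.003, 1.15 and 0.680 FPKM in TAp63-/- skin and 0.703, 0.656 and 1.24 FPKM in WT skin. Its groups overlapped and it did not pass in either comparison (adjusted p = 0.972 with TAp63 absent and 0.732 in the wild type). Summed over the HoxD cluster, the tumours had 4.51 to 9.05 FPKM and the skin 12.2 to 21.2 FPKM, without overlap. Hoxd8 and Hoxd9 made up much of these sums, such as 16.5 and 2.83 of 21.2 FPKM in TAp63-/- skin 1. The gap between the sums therefore repeats theirs and shows nothing about the other HoxD genes.

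At the other end of the axis code, Hoxa4 was higher in tumours. Hoxa4, at chr6:52189671-52191753 on the minus strand, helps set neck vertebra identity and lies inside the span of the Hoxa3 entry, so reads of these genes may be shared. It had 1.17, 1.24, 2.84 and 1.82 FPKM in TAp63-/- cSCC and 1.65 and 1.23 FPKM in WT cSCC, against 0.875, 0.765 and 0.388 FPKM in TAp63-/- skin and 0.568, 0.856 and 0.591 FPKM in WT skin. The tissues did not overlap, but the nearest libraries, TAp63-/- cSCC 1 and TAp63-/- skin 1, differed by little. The log2 change was 0.70 with TAp63 absent (SE 0.23, adjusted p = 0.0442) and 0.54 in the wild type (SE 0.27, adjusted p = 0.222). The call was lost without TAp63-/- cSCC 3 or 4 or any TAp63-/- skin library (adjusted p = 0.07 to 0.149), with only the compared groups in the fit (adjusted p = 0.103) and with sex as a term (0.39, adjusted p = 0.479). Hoxa4 reached 1 FPKM in the 6 tumours only, so it passed the filter on low values through the tumours alone.

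**Figure D3:**
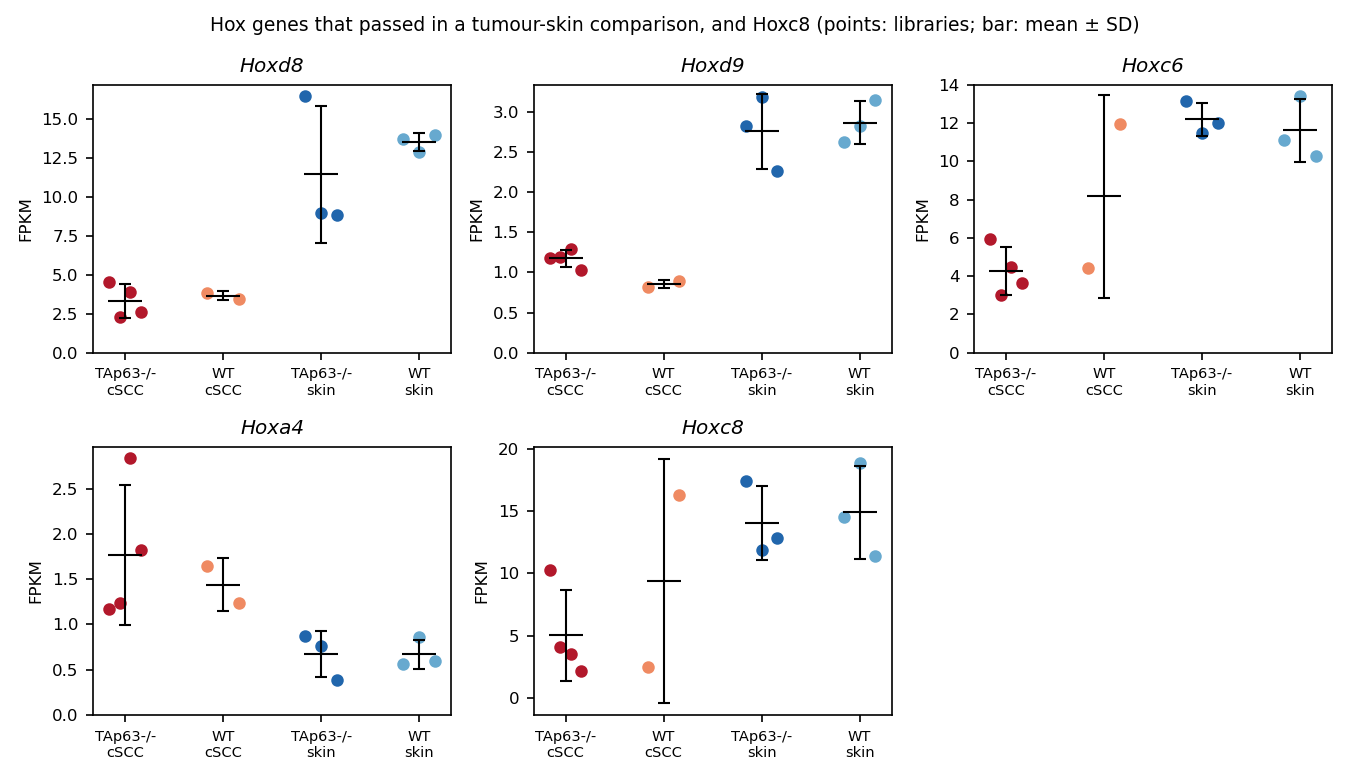
FPKM of Hoxd8, Hoxd9, Hoxc6 and Hoxa4, which passed in a tumour and skin comparison, and of Hoxc8, in each library (points) by group, with the mean (long bar) and SD (whiskers). Tumour points lie below skin for Hoxd8 and Hoxd9 and above skin for Hoxa4, while for Hoxc6 and Hoxc8 WT cSCC 2 lies among the skin libraries.

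Among the thoracic genes of the HoxC cluster, Hoxc6 had 5.93, 3.03, 4.47 and 3.62 FPKM in TAp63-/- cSCC and 4.40 and 11.9 FPKM in WT cSCC, against 13.1, 11.5 and 11.98 FPKM in TAp63-/- skin and 11.1, 13.4 and 10.3 FPKM in WT skin. TAp63-/- tumours were all below skin, and of the WT tumours replicate 2 lay within the skin range. The log2 change was -1.35 with TAp63 absent (SE 0.28, adjusted p = 0.00551), and -0.93 with sex as a term (adjusted p = 0.16). In the wild type it was -0.59 (SE 0.34, adjusted p = 0.284).

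Hoxc8, its neighbour and a regulator of thoracic identity, showed the same split between the WT tumours. It had 10.3, 4.12, 3.51 and 2.18 FPKM in TAp63-/- cSCC and 2.50 and 16.3 FPKM in WT cSCC, against 17.4, 11.9 and 12.8 FPKM in TAp63-/- skin and 14.5, 18.8 and 11.4 FPKM in WT skin. It was 1 of 5 Hox genes, with Hoxa10, Hoxc6, Hoxd8 and Hoxd9, for which all TAp63-/- tumours were below all TAp63-/- skin libraries (background 16.2%), but its log2 change of -1.47 did not pass (SE 0.52, adjusted p = 0.058). Without TAp63-/- cSCC 1 Hoxc8 was called in that comparison. Without WT cSCC 2, Hoxc6 and Hoxc8 were called beside Hoxd8 and Hoxd9 in the wild type, 4 in place of 2. WT cSCC 2 also stood apart in markers of other skin cells: its summed skeletal muscle markers were 555 FPKM, against 39.1 to 194 FPKM in the other tumours. Its melanocyte markers summed to 46.3 FPKM, against 1.51 to 4.996 FPKM in the other tumours, and its Schwann cell markers to 46.6 FPKM, against 16.5 to 31.1 FPKM. Their part in the Hoxc6 and Hoxc8 levels of that tumour was not tested. Both genes overlap the predicted entry Gm20398, and strand in counting is not stated.

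Tumours differed from one another more than skin libraries did. The SD of log2(FPKM + 1) was larger over the 6 tumours than over the 6 skin libraries for 23 of the 26 tested Hox genes (88.5%), against 83.1% of all tested symbols. Summed over 38 genes, Hox RNA was 208, 37.3, 91.5 and 123 FPKM in TAp63-/- cSCC and 171 and 153 FPKM in WT cSCC, against 142, 161 and 117 FPKM in TAp63-/- skin and 159, 192 and 176 FPKM in WT skin. TAp63-/- cSCC 2 and 3 lay below the skin range and TAp63-/- cSCC 1 above it. The number of Hox genes at 1 FPKM or more ran from 13 in TAp63-/- cSCC 2 to 25 in WT cSCC 1, and from 17 to 23 in skin.

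Hoxa7 carried much of this spread. It had 87.1, 4.99, 31.3 and 53.5 FPKM in TAp63-/- cSCC and 40.6 and 43.7 FPKM in WT cSCC, against 44.8, 53.0 and 15.9 FPKM in TAp63-/- skin and 28.2, 55.5 and 60.9 FPKM in WT skin. Only TAp63-/- cSCC 1 and 2 lay outside the skin range, on opposite sides of it. Hoxa7 made up 13.4% to 43.4% of the summed Hox FPKM in tumours and 13.6% to 34.6% in skin.

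Among the lumbosacral genes of paralog groups 9 and 10, Hoxa9, Hoxa10, Hoxb9 and Hoxc10 differed widely between libraries of 1 tissue, while Hoxd9, given above, was among the least variable. Hoxa9, which drives self-renewal in leukaemia together with Meis1, had 18.2, 0.198, 9.11 and 4.61 FPKM in TAp63-/- cSCC and 27.4 and 2.42 FPKM in WT cSCC, against 3.63, 6.46 and 2.48 FPKM in TAp63-/- skin and 1.92, 4.24 and 9.66 FPKM in WT skin. Its highest tumour was 138 times its lowest. Hoxa10, which also acts in the uterus, had 6.44 FPKM in WT cSCC 1 and at most 0.546 FPKM in the other 5 tumours, with a listed 0 in TAp63-/- cSCC 2 and 3, against 0.635 to 3.81 FPKM in skin.

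Hoxb9 had 6.46, 0.526, 2.45 and 4.40 FPKM in TAp63-/- cSCC and 13.9 and 2.70 FPKM in WT cSCC, against 1.92, 4.24 and 1.14 FPKM in TAp63-/- skin and 0.956, 4.25 and 4.78 FPKM in WT skin. Hoxc10, a lumbar and hindlimb gene, had 2.30, 1.47 and 2.49 FPKM in TAp63-/- cSCC 1, 3 and 4, was listed at 0 in TAp63-/- cSCC 2, and had 2.58 and 0.788 FPKM in WT cSCC, against 0.237, 2.06 and 0.192 FPKM in TAp63-/- skin and 0.158, 1.41 and 4.14 FPKM in WT skin. WT cSCC 1 was thus the highest tumour and TAp63-/- cSCC 2 the lowest for Hoxa9, Hoxb9 and Hoxc10. Within skin, WT skin 3, TAp63-/- skin 2 and WT skin 2 had the 3 highest values for all of these and for Hoxa10, and groups of the same tissue overlapped. The summed level of paralog groups 9 and 10 was 2.48 to 33.0 FPKM in TAp63-/- cSCC and 9.17 and 54.2 FPKM in WT cSCC, against 7.87 to 20.4 FPKM in TAp63-/- skin and 8.08 to 27.8 FPKM in WT skin. The labels call the control skin dorsal and give no finer position for tumours or skin, so the level on the body from which each library came was not analysed here.

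The other tested Hox genes passed in no comparison, and for all of them tumours and skin overlapped. In the HoxA cluster, Hoxa2, which sets the identity of a branchial arch, ran from 0.159 to 2.16 FPKM in tumours and from 0.474 to 1.10 FPKM in skin. Hoxa5, a gene of lung and neck, ran from 2.66 to 16.5 FPKM in tumours and from 4.61 to 8.94 FPKM in skin, and Hoxa6 from 0.184 to 4.99 FPKM in tumours and from 2.40 to 3.09 FPKM in skin. TAp63-/- cSCC 2 was the lowest tumour for each of these, and TAp63-/- cSCC 1 the highest for Hoxa5 and Hoxa6. In the HoxB cluster, Hoxb2 ran from 1.27 to 3.78 FPKM in tumours and from 1.49 to 2.45 FPKM in skin, and Hoxb3 from 0.849 to 5.35 FPKM in tumours and from 3.55 to 6.32 FPKM in skin. Hoxb5 ran from 0.142 to 2.63 FPKM in tumours and from 0.431 to 0.990 FPKM in skin, and Hoxb7, whose entry overlaps that of Hoxb8, from 0.982 to 7.38 FPKM in tumours and from 2.05 to 4.35 FPKM in skin. TAp63-/- cSCC 2 was again the lowest tumour for Hoxb2, Hoxb5 and Hoxb7, but for Hoxb3 it was TAp63-/- cSCC 3. In the HoxC cluster, Hoxc5 ran from 0.707 to 2.94 FPKM in tumours and from 1.65 to 3.11 FPKM in skin, and Hoxc9 from 0.0769 to 2.38 FPKM in tumours and from 0.485 to 1.12 FPKM in skin.

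**Figure D4:**
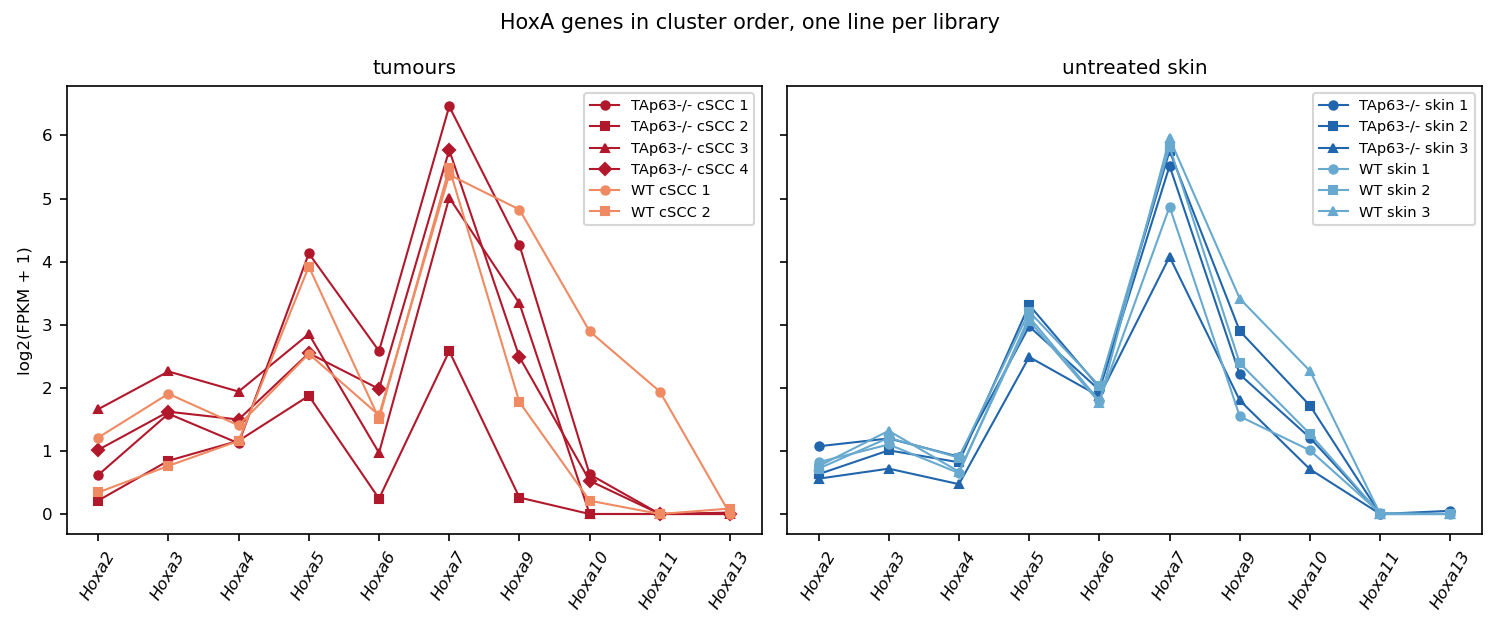
Level in log2(FPKM + 1) of 10 HoxA genes in cluster order, 1 line per library, for tumours (left) and untreated skin (right). All lines peak at Hoxa7; skin lines run close together up to Hoxa6, while tumour lines spread, with TAp63-/- cSCC 2 lowest at Hoxa7 and WT cSCC 1 alone above 0.1 FPKM at Hoxa11.

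No Hox gene passed the test between genotypes within a tissue. In TAp63-/- skin against WT skin, limma called 0 of the 26 after adjustment and 0 had an unadjusted p below 0.05, against 0.0203% of all symbols called (738 symbols with an unadjusted p below 0.05). The smallest p values were those of Hoxb8, Hoxa3 and Hoxb3, with log2 changes of -0.74 (SE 0.31), -0.23 (SE 0.15) and -0.29 (SE 0.19), each with an adjusted p of 0.923. The Hoxa3 value was -0.11 without TAp63-/- skin 3, and the Hoxb3 value was -0.16 without TAp63-/- skin 2 and -0.44 without TAp63-/- skin 3. Hoxb8, a trunk gene that also acts in myeloid cells, had 3.42, 8.30 and 4.28 FPKM in TAp63-/- skin and 7.08, 10.5 and 9.89 FPKM in WT skin, so the groups overlapped. Hoxa3, which forms the thymus and parathyroid, had 1.29, 1.01 and 0.646 FPKM in TAp63-/- skin and 1.15, 1.31 and 1.495 FPKM in WT skin. Without overlap, Hoxb2 alone of the 26 was lower, with 1.49, 1.95 and 1.98 FPKM in TAp63-/- skin and 2.04, 2.45 and 2.03 FPKM in WT skin (background 3.85%), and 0 were higher (background 6.77%). Its log2 change was -0.18 (SE 0.12, adjusted p = 0.923). The median log2 change of the 26 was -0.12, against 0.02 over all symbols, with 22 of the 26 below 0.

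In TAp63-/- cSCC against WT cSCC, 0 of the 26 were called, against 0% of all symbols (0 called by limma, 419 with an unadjusted p below 0.05), and Hoxc4 was the only Hox gene with an unadjusted p below 0.05. Hoxc4, a gene of the neck and upper thorax, had 0.633, 2.28, 4.32 and 2.74 FPKM in TAp63-/- cSCC and 7.17 and 7.46 FPKM in WT cSCC, beside 4.03, 3.12 and 3.24 FPKM in TAp63-/- skin and 3.86, 3.65 and 3.503 FPKM in WT skin. All 4 TAp63-/- tumours were below both WT tumours, with a log2 change of -1.37 (SE 0.47, adjusted p = 1, limma). Of the 26, Hoxc4 and Hoxb4 were lower and Hoxd9 was higher without overlap, against backgrounds of 4.14% lower and 5.71% higher.

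The next smallest p values in that comparison were those of Hoxb6, with 5.85, 1.49, 1.70 and 3.37 FPKM in TAp63-/- cSCC and 7.98 and 5.33 FPKM in WT cSCC (log2 change -1.001, SE 0.47, adjusted p = 1), and Hoxa10 (log2 change -1.26, SE 0.69, adjusted p = 1). The Hoxa10 value rested on WT cSCC 1: without that library it was 0.08, and without WT cSCC 2 it was -2.61. The median log2 change of the 26 was -0.47, against 0.03 over all symbols, with 22 of the 26 below 0, as many as in skin. With only 2 WT tumours, differences of this size could not be told from the spread between tumours. The share of all symbols below 0 was not counted.

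Whether the tumour and skin difference itself differed between TAp63-/- and WT was also tested. Of the 26 Hox genes 0 were called, against 0.0271% of all symbols (444 with an unadjusted p below 0.05), and Hoxc4 alone had an unadjusted p below 0.05. The difference of log2 changes, TAp63-/- minus WT, was -1.30 for Hoxc4 (SE 0.50), -0.77 for Hoxc6 (SE 0.44) and -0.69 for Hoxb6 (SE 0.57), each with an adjusted p of 1 by limma. The Hoxc6 value was -1.40 without WT cSCC 1 and -0.14 without WT cSCC 2, and the Hoxb6 value was -0.44 without WT cSCC 1. For Hoxd8, Hoxd9 and Hoxa4 it was 0.14 (SE 0.38), 0.28 (SE 0.24) and 0.15 (SE 0.36). The call of Hoxc6 and Hoxa4 with TAp63 absent only is therefore not shown to depend on genotype. These comparisons share libraries with the tumour and skin comparisons above.

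Hoxc13, at chr15:102921103-102928814 on the plus strand, had the highest skin median of the HoxC cluster, though its range overlapped that of Hoxc8. Hoxc13 is expressed in the hair matrix and activates hair keratin genes, and its loss in mice leaves brittle hair. It had 1.03, 2.18, 0.847 and 4.15 FPKM in TAp63-/- cSCC and 1.10 and 17.3 FPKM in WT cSCC, against 2.99, 9.65 and 23.2 FPKM in TAp63-/- skin and 38.8, 24.6 and 7.78 FPKM in WT skin. The tissues overlapped, WT cSCC 2, with the muscle, melanocyte and Schwann cell values given above, lay within the skin range, and in skin TAp63-/- replicate 1 was lowest. It did not pass in any comparison: the log2 change was -1.85 with TAp63 absent (SE 0.81, adjusted p = 0.113), -1.74 in the wild type (SE 0.97, adjusted p = 0.269) and -1.04 between TAp63-/- and WT skin (SE 0.82, adjusted p = 0.923).

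The level of Hoxc13 followed that of 12 hair shaft keratins from library to library. Their summed level was 4.27, 91.9, 2.09 and 128 FPKM in TAp63-/- cSCC and 1.001 and 664 FPKM in WT cSCC, against 6.69, 83.0 and 211 FPKM in TAp63-/- skin and 761, 226 and 25.6 FPKM in WT skin. Over the 6 tumours, Pearson's r between log2(FPKM + 1) of Hoxc13 and the mean over the keratins was 0.955 (exact permutation p = 0.0111, and 0.0111 after Benjamini-Hochberg adjustment over 2 relations) and Spearman's rho was 0.8286 (exact permutation p = 0.0583, adjusted 0.0583). The tumour p was 0.0667 when TAp63-/- cSCC 2, TAp63-/- cSCC 4 or WT cSCC 2 was left out, by the same exact test over 5 libraries. Over the 6 skin libraries r was 0.973 (exact permutation p = 0.00278, the smallest that 6 libraries can give; adjusted 0.00556) and rho was 1 (exact permutation p = 0.00278, adjusted 0.00556). Without the 2 libraries farthest from the median of Hoxc13, r was 0.971 in tumours and 0.953 in skin.

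Of all symbols that vary, 0.496% in tumours and 0.926% in skin had an r with these keratins at least as high as Hoxc13. Among the other 25 tested Hox genes r ran from -0.821 (Hoxa3) to 0.474 (Hoxc6) in tumours and from -0.763 (Hoxd10) to 0.819 (Hoxb6) in skin. Hair matrix transcription factors, Foxn1, Dlx3, Msx1, Msx2 and Lef1, changed in no comparison. Their summed level was 15.1, 59.0 and 135 FPKM in TAp63-/- skin and 155, 131 and 49.4 FPKM in WT skin. In tumours it was 19.6, 16.5, 21.1 and 28.0 FPKM in TAp63-/- cSCC and 9.88 and 70.6 FPKM in WT cSCC. Dlx3 put the skin libraries in the same order as Hoxc13, so that order was not particular to Hoxc13. The relation of these factors to the keratins was not tested. Of the 12 keratins Krt32 alone fell in TAp63-/- cSCC against TAp63-/- skin. The 5 melanocyte markers summed to 20.2, 89.8 and 196 FPKM in TAp63-/- skin and 193, 150 and 81.8 FPKM in WT skin, so they too were lowest in TAp63-/- skin 1, and their part was not tested.

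**Figure D5:**
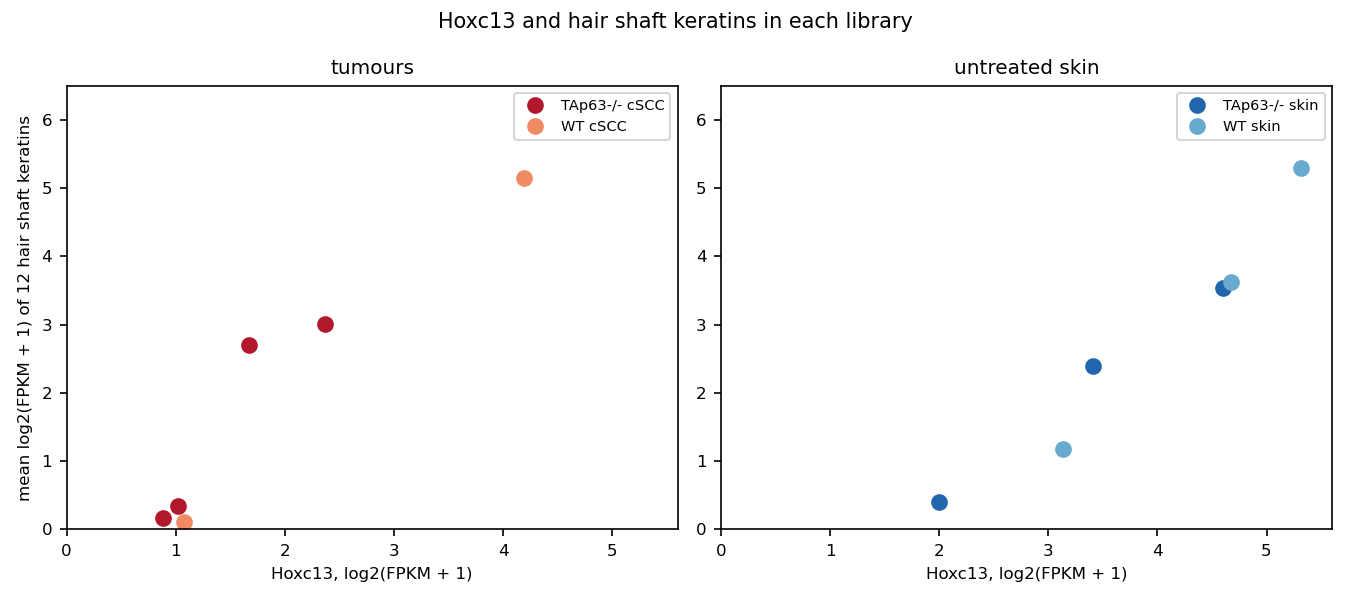
Hoxc13 in log2(FPKM + 1) (x axis) against the mean log2(FPKM + 1) of 12 hair shaft keratins (y axis) in each library, for tumours (left) and untreated skin (right). Points climb together in both panels, with WT cSCC 2 (17.3 FPKM of Hoxc13) alone at the upper right among tumours and WT skin 1 (38.8 FPKM) highest among skin.

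Genes that work with or regulate Hox genes were counted by list, beside the 27.2% of all symbols called with TAp63 absent and the 11.4% called in the wild type. Of 8 tested TALE cofactors, the Pbx, Meis and Pknox homeodomain proteins that bind DNA beside Hox proteins, Pknox2 alone fell, with a log2 change of -2.22 with TAp63 absent (SE 0.26, adjusted p = 0.000184) and -1.47 in the wild type (SE 0.31, adjusted p = 0.0141). Among the tumours it reached 1 FPKM in WT cSCC 2 only (1.83 FPKM), against 4.01 to 7.85 FPKM in skin, so it passed the filter on low values through the skin, where it is high. Of 20 Polycomb genes, which keep Hox genes silent, 3 rose and 2 fell with TAp63 absent and 1 fell in the wild type. Cbx7, a Polycomb reader subunit, fell in both (log2 change -1.60, SE 0.24, adjusted p = 0.000763 with TAp63 absent, and -1.52, SE 0.29, adjusted p = 0.00768 in the wild type). Of 13 trithorax and demethylase genes, which oppose Polycomb, Kdm6a and Kdm6b rose with TAp63 absent and Kdm6a in the wild type, with log2 changes for Kdm6a of 0.70 (SE 0.15, adjusted p = 0.00547) and 0.67 (SE 0.17, adjusted p = 0.0321). Kdm6a is X-linked and escapes inactivation in mice, and sex differed between these groups as given above. The male tumour, TAp63-/- cSCC 1, had 10.5 FPKM of Kdm6a, against 9.73 to 12.9 FPKM in the other tumours and 5.79 to 7.01 FPKM in skin. The part of sex in the Kdm6a change was not tested. The median log2 change with TAp63 absent and in the wild type was 0.08 and -0.18 for the TALE genes, -0.03 and -0.03 for the Polycomb genes and 0.38 and 0.18 for the trithorax and demethylase genes, against 0.10 and 0.04 over all symbols.

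Of 20 homeobox and T-box genes that mark body position outside the Hox clusters, 11 were tested, and 2 rose and 2 fell with TAp63 absent and 1 rose and 1 fell in the wild type, against 27.2% and 11.4% of all symbols called. Pitx1, the hindlimb selector gene, had 22.3, 19.9, 1.80 and 4.35 FPKM in TAp63-/- cSCC and 13.1 and 12.8 FPKM in WT cSCC, against 0.0814 to 0.375 FPKM in TAp63-/- skin and 0.118 to 0.186 FPKM in WT skin. Its log2 change was 2.96 with TAp63 absent (SE 0.62, adjusted p = 0.00555) and 3.61 in the wild type (SE 0.74, adjusted p = 0.0113). Pitx1 passed the filter on low values through the tumours alone, where it is high. Tbx15, which patterns dorsal skin, had 2.74 to 4.46 FPKM in TAp63-/- cSCC and 5.33 and 7.09 FPKM in WT cSCC, against 20.9 to 29.4 FPKM in TAp63-/- skin and 19.6 to 20.9 FPKM in WT skin, with log2 changes of -2.57 (SE 0.19, adjusted p = 1.22e-05) and -1.56 (SE 0.23, adjusted p = 0.00224). Dlx5, which patterns the jaw and limbs, rose with TAp63 absent (log2 change 1.78, SE 0.49, adjusted p = 0.0209) and did not pass in the wild type (0.94, SE 0.58, adjusted p = 0.324). The median log2 change over the 11 was -0.14 with TAp63 absent and -0.05 in the wild type. No gene of these lists was called between genotypes in skin or in tumours.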

How the data were processed

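RNA-seq was analysed in 12 libraries in 4 groups taken from the labels, made per the labels with the miRVANA kit for total RNA and the TruSeq RNA kit. Per the submitters' processing notes, the authors used TopHat2 2.0 and Cufflinks 2.0 on mm10. The deposited values were taken as FPKM, a unit inferred from Cufflinks and the values. At least 99.98% of the sorted values of 1 FPKM or more lay within 1% of those common to all columns, from which quantile normalization was inferred. It can hide changes of total RNA, and the depth is unknown. Strand in counting is not given in the sources used here, and 25 of 38 Hox entries overlap another entry.

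Entries of 272 repeated symbols, none of them Hox, were summed. Symbols with at least 1 FPKM in at least 2 libraries (14752) were fitted as log2(FPKM + 1) by limma 3.58.1 (variance trend; R 4.3.3), two-sided, with Benjamini-Hochberg adjustment and a threshold of 0.05. Changes are on the log2(FPKM + 1) scale, which understates those of low genes. Genotype comparisons used the 6 libraries of a tissue, and the others all 12. Replicate numbers are in accession order. Each library has its own code in its title, which the labels do not explain, and separate animals are not stated. The p-values therefore measure the spread between samples, which may be technical. By its sex, TAp63-/- cSCC 1 came from another animal than the rest of its group. The procedure was also run on simulated data in which each gene had the same spread in all groups. Those data lack the larger spread between tumours given above. Permutation tests used scipy 1.17.1 and figures matplotlib 3.10.9.

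Coordinates are mm10 with starts counted from 1. Of 38 Hox identifiers 37 were in GENCODE M21, and 18 had its coordinates. Of the 39 Hox genes 1, and 1 gene of a list, are not reported here, and counts leave them out. The members, gene lists and tests were chosen with earlier results of these data known. Values with tests are given for Hox genes called in a comparison, or else for the 3 with the smallest p, and for at most 3 called genes of each list. Values of Hoxc8, Hoxc13, Hoxd10, Hoxa7 and the genes of paralog groups 9 and 10 were chosen after they were seen. Krt85 and Acta1 were listed but are not used here. Alternatives covered the pseudocount (0.1), the filter (none, or 0.5 FPKM in 3 libraries), median-of-ratios rescaling, array weights, repeated symbols kept apart, the libraries in the fit, sex as a covariate, and leaving out each library.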

Additional observations from a re-analysis of the deposited data

Results flagged for a closer look

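Hoxb4, which supports blood stem cells, had 2.14, 1.97, 0.885 and 1.99 FPKM in TAp63-/- cSCC and 2.70 and 2.33 FPKM in WT cSCC, against 0.606, 1.38 and 0.862 FPKM in TAp63-/- skin and 0.957, 1.13 and 1.06 FPKM in WT skin. TAp63-/- cSCC 3, at 0.885 FPKM, lay far from the other 3 tumours of its group (gap 0.888 of the group's range, above Dixon's critical value), and it alone of the tumours lay within the skin range. It was the only such value among the 25 Hox genes that could be tested this way in the group of 4, and chance marks about 1 in 20.

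Hoxa11, left untested for its low level, had 2.84 FPKM in WT cSCC 1, and the overlapping non-coding entry Hoxa11as had 2.81 FPKM there. Both were at or near 0 in the other libraries.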

How the results depend on the processing

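Hox calls in WT cSCC against WT skin numbered 2 under 6 alternatives (pseudocount, both filters, rescaling, array weights, repeated symbols kept apart), 4 with only the compared groups in the fit (Hoxb4, Hoxc4, Hoxd8 and Hoxd9) and 0 with sex as a covariate, and 2 to 4 when a library was left out. In TAp63-/- cSCC against TAp63-/- skin they numbered 4 or 5 under the alternatives other than sex, which left 1 (Hoxc4), and 3 to 5 when a library was left out. The sex covariate rests on TAp63-/- cSCC 1, the only male tumour. Both genotype comparisons and the interaction gave 0 Hox calls under every alternative run. Hoxa10 in TAp63-/- cSCC against WT cSCC reversed without WT cSCC replicate 1, to 0.0777, with a range over its alternatives of -2.61 to 0.0777. The relation of Hoxc13 to hair keratins in tumours had r of 0.936 to 0.990 when a library was left out, with an exact permutation p of 0.0667 without TAp63-/- cSCC 2, TAp63-/- cSCC 4 or WT cSCC 2. The cause was not tested, beyond fewer libraries in the last. Over single genes, 211 values kept direction and side of the threshold, 12 kept direction and fell short of it, and 1 reversed. No paired analysis was possible because replicate numbers are in accession order and pair nothing. Unknown depth limits the reading of genes near 0.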
